A study of Mus musculus with 3 samples.

Results

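The genes described here are the interferon response genes of the mouse gallbladder, a list of 38 named symbols read in single-cell RNA data. Of these, 37 were measured among the 31053 genes of the deposited matrix, 32 of the 33 type I genes and all 5 gamma-type genes (Irf1, Gbp2, Gbp3, Iigp1 and Igtp). Mx2 was not analysed here. The members were chosen by name rather than by a cut-off on measured values, but with earlier results of these data known. The study gave male C57BL/6 mice oral gavage in 3 groups, which were vehicle for 6 weeks (control), nanoplastics for 3 weeks (termed acute) and nanoplastics for 6 weeks (termed chronic). Per the labels, 10 gallbladders were pooled per group and digested with trypsin, so each group is 1 droplet library with no replicate. The particle type, dose and age of the animals were not given in the sources used here. The barcodes carry a library number, 1, 2 or 3, that no label ties to a group. Libraries are therefore set side by side as unassigned libraries, without a comparison between exposures and without a test.

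Interferons are secreted proteins that warn cells of infection. Type I interferons (interferon alpha and beta) bind the Ifnar1 and Ifnar2 receptor, and a signal that uses STAT2 and IRF9 then reaches the interferon-stimulated response element (ISRE) in the promoters of antiviral genes. Interferon gamma, made by T cells and natural killer cells, binds Ifngr1 and Ifngr2 and acts on promoters through the gamma-activated site (GAS). The guanylate-binding proteins (Gbp2, Gbp3) and the immunity-related GTPases (Iigp1, Igtp), which attack vacuoles that hold microbes, are known for strong induction by gamma, and Irf1 is its early transcription factor. Both programmes overlap, and most members of either list can respond to either interferon. In the gallbladder wall, the epithelium faces bile and microbial products, and the vessels lie beneath it.

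Depth and composition differed between the libraries. Their totals were 72943584, 121349261 and 58172348 UMIs (unique molecular identifiers, 1 per captured transcript) in libraries 1, 2 and 3. After filtering, 4263, 10933 and 9797 cells were kept, with medians of 10381, 9330 and 2288 UMIs. Pairs of libraries shared between 15 and 22 barcode sequences, at most 0.301% of the smaller library. A total of 234 cells, 231 of them in library 1, formed 2 clusters with Xist above 100 CPM although the mice are labelled male, 1 with rod photoreceptor genes and 1 with macrophage and microglia genes. They were set apart, and every level given for a cell class is without them. Including the 138 set-apart cells with macrophage genes would move the type I sum of macrophage-like cells from 2235.7 to 2328.6 CPM. Epithelial transcripts were also found in other classes: Krt8 reached 360.9 CPM in blood endothelial-like cells, 7.71% of its 4679.9 CPM in epithelial-like cells. In pericyte-like cells Krt8 reached 594.5 CPM (12.7%), with 141.6, 1406.2 and 210.5 CPM in libraries 1, 2 and 3.

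Cell classes were clusters named from marker genes and carry "-like" for that reason. All 7 blood endothelial markers reached 10 CPM or more in the 1214 blood endothelial-like cells, with a sum of 8052.5 CPM, against 39.757 CPM in epithelial-like cells. All 7 pericyte markers did so in the 215 pericyte-like cells (12941 CPM in sum), and all 8 epithelial markers in the 9769 epithelial-like cells (13599 CPM in sum). The listed interferon genes were left out of the clustering, so no class was formed on their own levels. Genes outside the lists that are high in the same cells were not left out. For each class the UMIs of its cells were added up and each gene's count was scaled to a fixed class total (CPM). Values in parentheses are exact 95% Poisson bounds, which cover counting error only. UMIs tag 1 end of each transcript, so levels were not divided by gene length.

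The promoters of the members are shown because many of them hold the element through which type I interferon is known to act. RefSeq promoter windows (build GRCm38.p6, 250 bases before to 50 after a start) were found for 23 of the 32 type I genes and 4 of the 5 gamma-type genes. The ISRE core (GAAA, any 2 bases, GAAA), searched on both strands, was present for 13 of the 23 type I genes (56.5%), against 3.99% of 27025 genes with a window. The stretches below are written 5′ to 3′ on the strand of the gene, and capitals mark the ISRE core, which reads as a pair of TTTC blocks where it lies on the other strand. Rsad2 (viperin, an enzyme that makes a chain-terminating nucleotide) held 1 core at chr12:26456543-26456592 on the minus strand:
Rsad2: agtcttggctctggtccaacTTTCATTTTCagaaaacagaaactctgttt
Ifit1 (a protein that binds viral RNA ends) held 2 at chr19:34640774-34640823 on the plus strand:
Ifit1: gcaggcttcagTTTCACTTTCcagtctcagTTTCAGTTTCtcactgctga
Isg15 (a ubiquitin-like protein attached to other proteins) held 3 overlapping cores at chr4:156200861-156200910 on the minus strand:
Isg15: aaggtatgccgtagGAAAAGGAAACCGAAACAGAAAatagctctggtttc
The neighbours Ifit3 (chr19:34583363-34583426, plus strand) and Ifit3b (chr19:34607759-34607822, plus strand) carried the same 64 bases with 2 cores:
Ifit3: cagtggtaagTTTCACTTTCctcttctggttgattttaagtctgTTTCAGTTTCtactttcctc
Ifit3b: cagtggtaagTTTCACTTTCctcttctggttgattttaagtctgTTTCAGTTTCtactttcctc

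The windows of Ifit3 and Ifit3b were 75.0% identical over 268 aligned bases. Their longest transcripts shared 61.8% of the 31-base words of Ifit3, but none in the last 400 bases, where 3′ libraries are read. How reads that match both were counted is not given in the sources used here, so the split between this pair is uncertain. The RefSeq start of Ifit3b also had no match among the annotated transcript starts, as for 7 of 32 member windows, so distances from its start are less sure. Among the type I genes without the core in this window were Irf7, Irf9, Ifit2, Cmpk2 and Herc6, which says only that these letters are not in these 300 bases.

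The gamma-type promoters differed in which core they held. Gbp2 and Gbp3 held the ISRE core without the GAS core (TTC, any 3 bases, GAA, both strands), Igtp held both, and Irf1 held the GAS core alone. Over the type I genes the GAS core was present for 5 of 23 (21.7%), and over all genes for 9.55%. Gbp2 lies on chr3:142620584-142620633, Igtp on chr11:58199502-58199551 and Irf1 on chr11:53769903-53769952, all on the plus strand. Capitals mark the ISRE core in the stretches of Gbp2 and Igtp, and the GAS core in that of Irf1:
Gbp2: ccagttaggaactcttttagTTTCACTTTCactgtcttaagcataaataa
Igtp: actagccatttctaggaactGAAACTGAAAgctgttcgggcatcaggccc
Irf1: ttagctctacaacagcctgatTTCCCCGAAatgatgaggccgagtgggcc
The ISRE core of Igtp ended 25 bases before the start and that of Gbp2 50 bases before it, and the GAS core of Irf1 ended 82 bases before it. The GAS core of Igtp lies in lower case in its stretch, 45 to 37 bases before the start. In Rsad2 the core lay 120 to 111 bases before the start.

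**Figure D1:**
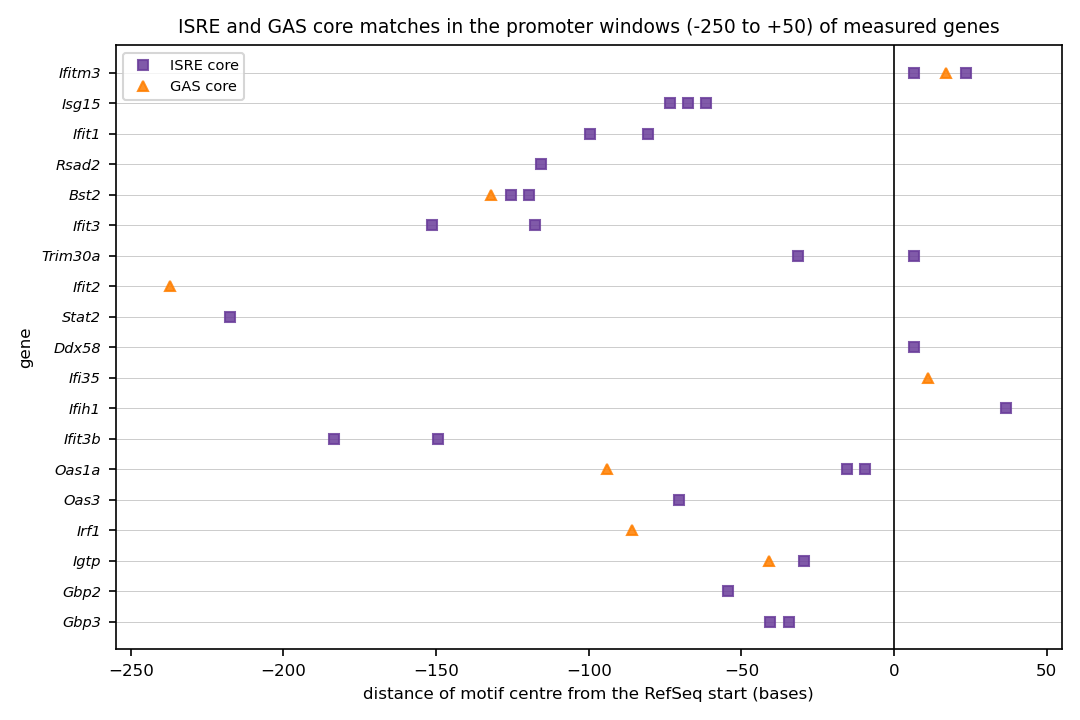
Position of the ISRE core (squares) and the GAS core (triangles) in the promoter windows of the measured interferon response genes. The x axis is the distance of the motif centre from the RefSeq start in bases, and each row is a gene with at least 1 match. Isg15, Oas1a, Bst2 and Gbp3 hold overlapping ISRE cores, and Ifitm3, Ddx58 and Ifih1 hold theirs after the start.

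Interferon transcripts themselves were scarce. Ifng, the gene of interferon gamma, had 335 UMIs in all, and T cell-like cells held the highest level, 74.19 CPM (65.97 to 83.16). It was detected in 152 of 1584 T cell-like cells (9.6%), against 5 of 9769 epithelial-like cells (0.0512%), at median depths of 2087 and 13288 UMIs. By library, 19.5%, 9.48% and 3.03% of T cell-like cells in libraries 1, 2 and 3 had an Ifng UMI. Their median depths followed the same order, 4811, 2130 and 1327 UMIs, and the part of depth in this share was not tested. The Ifng level had that order too, at 109.0, 66.04 and 22.53 CPM. Ifnb1, the gene of interferon beta, had 17 UMIs in 5 macrophage-like cells, 3 in library 1 and 2 in library 2. No UMI of Ifna1 was counted in the kept cells, which allows up to 0.01575 CPM at the upper 95% bound, and Ifna13 had 1 UMI among the alpha genes. Ifnab had 4, Ifnk 6, Ifnz 14, and Ifne, Ifnl2 and Ifnl3 1 UMI each.

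The receptor genes were not highest where the response genes were. None of the 5 receptor genes tested was highest in blood endothelial-like cells. Ifngr1 was highest in T cell-like cells at 1439.5 CPM, where Ifnar1 also led with 155.4 CPM (143.4 to 168.2), overlapping neutrophil-like cells (124.7 to 156.1). Ifnar2 (139.7 CPM) and Il10rb (285.7 CPM), part of the lambda receptor, led in neutrophil-like cells, and Ifngr2 (146.3 CPM, 122.0 to 174.1) in pericyte-like cells, where its interval overlaps that of neutrophil-like cells (129.7 to 161.7). Ifnlr1, the part of the lambda receptor that binds the ligand, was highest in tuft cell-like cells at 10.37 CPM (4.972 to 19.07), and its interval overlaps that of neutrophil-like cells (4.761 to 12.7). In blood endothelial-like cells the receptor genes summed to 294.1, 300.7 and 514.3 CPM in libraries 1, 2 and 3, and library 3 was highest for 5 of the 5 tested, where it was highest for 61.4% of all genes. In the same cells, as given below, library 3 was lowest for most type I genes.

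The blood vessel lining held the highest level of most interferon response genes. In the 1214 blood endothelial-like cells the type I genes summed to 6035.0 CPM (5947.1 to 6124.0) and the gamma-type genes to 2207.9 CPM (2154.8 to 2261.9). The 215 pericyte-like cells, the contractile cells that wrap small vessels, came next for both over pooled libraries, at 4852.8 CPM (4707.3 to 5001.6) and 1235.1 CPM. In library 3 alone, the gamma-type sum was 2045.3 CPM (1716.0 to 2419.4) in the 40 pericyte-like cells. It was 1731.4 CPM (1662.4 to 1802.6) in the vessel lining, and these intervals overlap, so the order cannot be read there. Mesothelial-like cells (2877.5 CPM), fibroblast-like cells (2354.1 CPM), macrophage-like cells (2235.7 CPM) and lymphatic endothelial-like cells (2206.7 CPM) followed for type I. Epithelial-like cells, at 930.0 CPM (925.5 to 934.6), stood beside T cell-like cells (927.5 CPM) and plasma cell-like cells (932.3 CPM). Tuft cell-like (644.9 CPM) and innate lymphoid cell-like cells (586.9 CPM) were lowest. Intervals overlap for plasma cell-like, epithelial-like and T cell-like cells, for macrophage-like and lymphatic endothelial-like cells, and for tuft cell-like and innate lymphoid cell-like cells, so the order within these sets cannot be read.

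Of the 36 members that reached 10 CPM and 20 UMIs in at least 1 of 15 classes, 26 were highest in blood endothelial-like cells, 22 of 31 type I and 4 of 5 gamma-type. Over all 12306 genes tested in the same way, 7.96% were highest there. For 8 of the 26 (Ifit3b, Stat2, Oasl1, Xaf1, Ifih1, Dhx58, Cmpk2 and Irf1) the interval overlaps that of the next class. Within libraries 1, 2 and 3, 26, 29 and 21 members were highest in blood endothelial-like cells, and 21 of the 26 were so in every library. The other 5 (Ifit3, Stat2, Ifitm3, Iigp1 and Irf1) had another class on top in library 3. Pericyte-like cells, 40 in library 3, led there for Ifit3, Stat2, Iigp1 and Irf1, and lymphatic endothelial-like cells for Ifitm3 (823.7 against 642.2 CPM). Ranks given without a library are over pooled libraries, which hold different shares of each class. At least 2-fold above the median of the other classes were 26 of 31 type I and 5 of 5 gamma-type genes, against 16.6% of all genes. The median log2 difference to that median was 1.57 for type I and 2.16 for gamma-type genes, and 0.0778 over all genes tested. Lymphatic endothelial-like cells, the other vessel lining, led for no member over pooled libraries, where 8.53% of all genes were highest, and 9 type I genes passed the 2-fold mark there, against 17.1% of all genes. Of these 269 cells 229 were in library 3, and within single libraries they led for Bst2 (libraries 1 and 3), Zbp1 (library 1) and Ifitm3 (library 3).

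**Figure D2:**
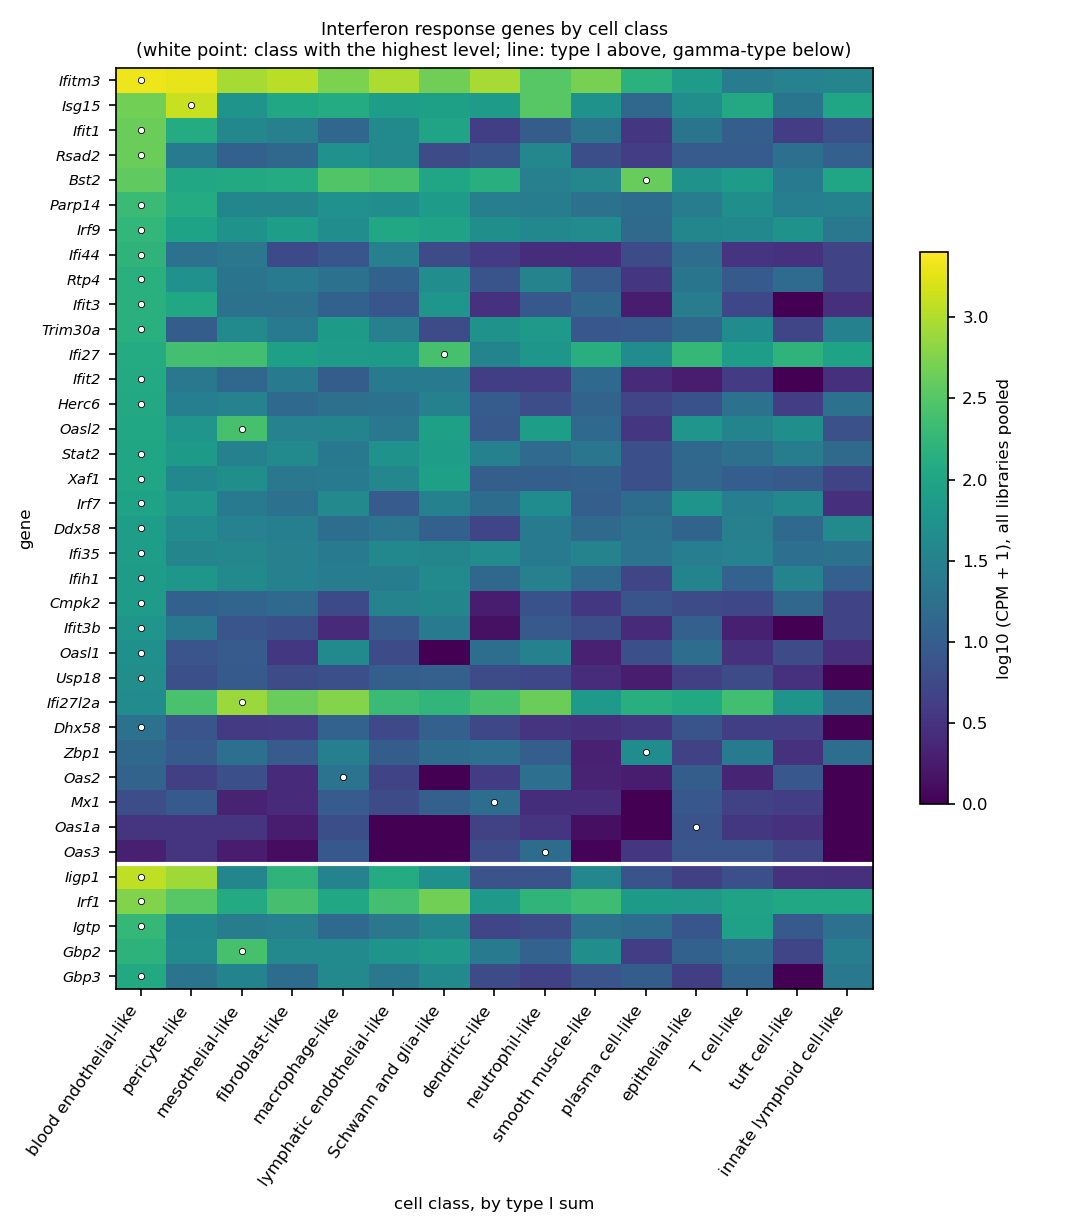
Heat map of each measured interferon response gene (rows, type I above the white line and gamma-type below) in 15 cell classes (columns, ordered by type I sum), as log10 of CPM plus 1 over all libraries pooled. White points mark the class with the highest level, which is blood endothelial-like for most rows, with exceptions such as Isg15 in pericyte-like cells, Ifi27l2a in mesothelial-like cells and Bst2 in plasma cell-like cells.

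Among the type I genes, Rsad2 had the largest ratio of its highest class to the median of the other classes. Its level in blood endothelial-like cells was 425.4 CPM (402.3 to 449.5), 42.0 times that median, and the next class, macrophage-like, had 51.67 CPM. In libraries 1, 2 and 3 Rsad2 stood at 392.1, 617.7 and 363.1 CPM in blood endothelial-like cells. Cmpk2, which lies next to Rsad2 on chromosome 12 and encodes the kinase that supplies its substrate, was at 74.32 CPM in the same cells (67.71, 102.4 and 66.48 CPM by library). Ifi44 had 161.1 CPM (33.3 times its median over the other classes). Ifit1 reached 438.2 CPM (414.7 to 462.7), with pericyte-like cells next at 122.1 CPM.

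The IFIT family, which binds foreign RNA and blocks its translation, was led by blood endothelial-like cells for all 4 members. By library, Ifit1 had 473.0, 699.0 and 295.9 CPM, Ifit2 132.4, 212.9 and 68.67 CPM, Ifit3 196.1, 304.0 and 34.34 CPM, and Ifit3b 73.78, 94.28 and 32.14 CPM. Library 2 was highest and library 3 lowest for each of the 4. Library 2 stood 8.85-fold above library 3 for Ifit3, 2.36-fold for Ifit1 and 3.1-fold for Ifit2. These genes lie together on chromosome 19, Ifit2 at 34550694 to 34576419, Ifit3 at 34583531 to 34588731, Ifit3b at 34607970 to 34613401 and Ifit1 at 34640871 to 34650009 (GRCm38, all on the plus strand).

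Ifitm3, a membrane protein that blocks the entry of enveloped viruses, gave the most UMIs of the list. It stood at 2038.7 CPM (1987.7 to 2090.7) in blood endothelial-like cells and, just below, at 1888.4 CPM (1798.0 to 1982.0) in pericyte-like ones. Without it the endothelial type I sum is 3996.3 CPM. Fibroblast-like cells had 1107.7 CPM of Ifitm3 and T cell-like cells 26.91 CPM. Isg15 had another order, with 1314.6 CPM (1239.4 to 1393.1) in pericyte-like cells and 477.6 CPM (453.0 to 503.1) in blood endothelial-like cells. Usp18, the enzyme that removes Isg15 from proteins and restrains the type I receptor, was at 47.08 CPM in blood endothelial-like and 5.761 CPM in pericyte-like cells, the reverse order. Herc6, the mouse ligase that attaches Isg15, also had its highest level in blood endothelial-like cells, 111.7 CPM against 28.80 CPM in pericyte-like cells.

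The RNA sensors and the transcription factors followed the vessel lining at lower levels. Ddx58 (RIG-I) had 79.37 CPM, Ifih1 (MDA5) 75.33 CPM and Dhx58 (LGP2) 17.82 CPM in blood endothelial-like cells, each the highest of the 15 classes. For Ifih1 the interval (65.79 to 85.87) overlaps that of pericyte-like cells (46.74 to 81.18). Irf9 (179.6 CPM), Stat2 (102.6 CPM) and Irf7 (91.48 CPM), the factors that carry the type I signal or amplify it, led there too. The Stat2 interval (91.38 to 114.8) overlaps that of Schwann and glia-like cells (45.98 to 130.6), which rest on 86 cells.

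The remaining type I genes of the vessel lining covered varied roles. Parp14, an ADP-ribosyltransferase, had 199.1, 346.2 and 155.6 CPM in libraries 1, 2 and 3 of blood endothelial-like cells, and pericyte-like cells were next at 122.1 CPM pooled. Bst2 had 427.5, 624.2 and 206.7 CPM there by library, and Rtp4, a chaperone of receptors, 182.9, 247.1 and 69.4 CPM. Trim30a was flatter, at 108.1, 178.8 and 149.8 CPM, with library 1 lowest. Parp14, Bst2 and Rtp4 had their lowest value in library 3.

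The OAS family, named for enzymes that make the messenger activating RNase L, was led by blood endothelial-like cells only for Oasl1 over pooled libraries. Oasl2 was highest in mesothelial-like cells, at 257.8 CPM against 107.6 CPM in blood endothelial-like cells, with the order turned in library 2 (147.1 against 164.2 CPM). Oas2 led in macrophage-like cells (18.90 CPM, overlapping neutrophil-like cells at 16.51 CPM) and Oas3 in neutrophil-like cells (14.73 CPM, 33 UMIs). Oas1a stayed below 10 CPM in every class, with 6.323 CPM in epithelial-like cells. Oasl1, at 50.45 CPM, led in blood endothelial-like cells, with macrophage-like cells at 40.51 CPM and overlapping intervals. Mx1 was highest in dendritic-like cells, at 16.05 CPM (12.69 to 20.03), and in pericyte-like cells within library 2.

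Libraries differed more than counting error in the endothelial levels. The type I sum in blood endothelial-like cells was 6981.5, 10627.7 and 3286.8 CPM in libraries 1, 2 and 3, from 166, 231 and 817 cells with median depths of 4817.5, 2258 and 1276 UMIs. Leaving out library 2 gives 4837.0 CPM and leaving out library 3 gives 8379.4 CPM. Library 2 was highest for 26 of the 27 type I genes tested in these cells, against 20.7% of all 7974 genes tested. Library 3 was lowest for 23 of 27, against 25.2% of all genes. The median log2 difference of library 2 from library 1 was 0.472 over the type I genes and -0.0126 over all genes, and that of library 3 from library 2 was -1.06 and 0.265.

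The size of the difference between libraries varied among the genes. The ratio of library 2 to library 3, over 29 type I genes with more than 3 UMIs in both, ran from 0.922 to 8.94 with a median of 2.36. Isg15 (1168.8 against 130.8 CPM), Ifit3, Zbp1 (6.68-fold) and Ifitm3 (4057.3 against 642.2 CPM) had the largest ratios. Irf9 was nearly level, at 163.7, 177.2 and 192.1 CPM in libraries 1, 2 and 3. Trim30a (1.19-fold), Herc6 (1.36-fold) and Stat2 (1.41-fold) differed little, and Rsad2 differed 1.7-fold. Between libraries 2 and 1 the same ratio was narrower, from 1.02 to 2.22 with a median of 1.48, and above 1 for 29 of 29 genes. Library 3 held the shallowest endothelial cells, and the part of depth in these ratios was not tested.

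**Figure D3:**
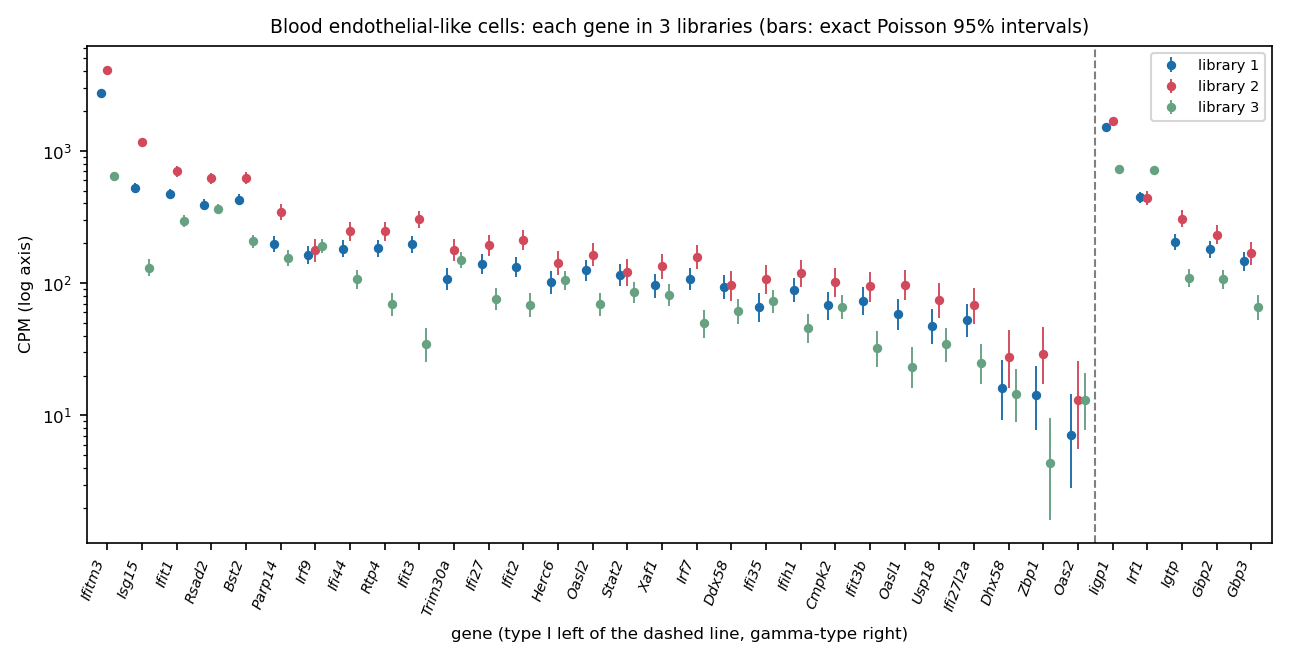
Level of 34 interferon response genes in blood endothelial-like cells of each unassigned library, in CPM on a log axis, with exact Poisson 95% intervals as bars. Type I genes stand left of the dashed line and gamma-type genes right of it. Library 2 is the top point for nearly all type I genes, and Irf1 is the gamma-type gene where library 3 is on top.

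The 2 clusters of blood endothelial-like cells differed in part of the list. Cluster 9 (923 cells) was led by Igfbp3, Flt1, Cyp1a1, Fabp4 and Kdr, and cluster 23 (291 cells) by Selp, with Aqp1 at 2853.9 CPM against 420.6 CPM. The listed interferon genes had no direct part in forming them. Of 29 type I genes tested, 11 were at least 2-fold higher in cluster 9, against 10.7% of 8528 genes, and over pooled libraries 0 of 5 gamma-type genes were. Within libraries 2 and 3 Gbp3 was 2.51-fold and 2.06-fold higher in cluster 9, and within library 3 Igtp was 2.47-fold higher. The 11 were Ifit1, Ifit2, Ifit3, Ifit3b, Irf7, Oas2, Oasl1, Rsad2, Xaf1, Herc6 and Cmpk2, with Oas2 resting on 3 UMIs in cluster 23.

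Rsad2 had the largest of these ratios over pooled libraries among genes with more than 3 UMIs in both clusters. It stood at 562.4 CPM in cluster 9 and 136.8 CPM in cluster 23, a ratio of 4.11, and the ratio was 4.54, 3.44 and 5.1 in libraries 1, 2 and 3. Ifit2 (3.28; 4.61, 2.29 and 7.11 by library), Cmpk2 (2.91) and Ifit1 (2.51) followed. Ifitm3 (0.893) and Iigp1 (0.969) were nearly equal in both clusters. Ifi27l2a was the only member tested that was at least 2-fold higher in cluster 23 over pooled libraries, at 84.62 CPM against 23.31 CPM, where 3.71% of all genes were. Its ratio of cluster 9 to cluster 23 was 0.21, 0.144 and 1.03 in libraries 1, 2 and 3, so the clusters were level in library 3.

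Per cell, the response was widespread in the vessel lining. At a matched depth of 2000 UMIs per cell, 274 of 454 blood endothelial-like cells (60.4%, exact Clopper-Pearson 95% interval 55.7 to 64.9) had UMIs of at least 5 type I genes. The 760 shallower cells were left out, and at full depth the share over all 1214 cells was 45.1%. By library the matched shares were 67.2%, 82.4% and 40.4%, and only 1.32% of these cells had no type I UMI. Pericyte-like cells came next with 49 of 135 (36.3%), then mesothelial-like (18.5%) and macrophage-like cells (146 of 806, 18.1%). None of 96 innate lymphoid cell-like cells had 5, which allows a share of up to 3.77%, and none of 60 tuft cell-like cells, which allows up to 5.96%.

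Pericyte-like cells shared the high Ifitm3 and Iigp1 of the vessel lining and lacked much of its Rsad2. Rsad2 stood at 25.35 CPM in them (22 UMIs) and Ifi44 at 17.28 CPM. Of the members tested, 14 of 31 type I and 3 of 5 gamma-type genes were at least 2-fold above the median of the other classes, against 11.2% of all genes. Isg15 was at 1414.2, 1373.7 and 300.8 CPM in libraries 1, 2 and 3, so it was lowest in library 3, as in blood endothelial-like cells. The type I sum followed with 4831.5, 5527.3 and 1894.9 CPM, where library 3 rests on 40 cells. Blood endothelial markers summed to 65.672 CPM in pericyte-like cells, against 8052.5 CPM in blood endothelial-like cells, while epithelial markers summed to 1947.1 CPM.

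A few members were highest in a stromal or immune class over pooled libraries. In mesothelial-like cells, the lining of the outer surface, Ifi27l2a was at 762.8 CPM (1156.4, 1034.3 and 586.6 CPM in libraries 1, 2 and 3), ahead of macrophage-like cells at 595.6 CPM and far above blood endothelial-like cells at 43.05 CPM. Ifi27 was highest in Schwann and glia-like cells at 256.4 CPM (190.9 to 337.1), an interval that overlaps that of pericyte-like cells (209.3 to 275.8), and within libraries 1 and 2 it was highest in mesothelial-like cells. Bst2 (tetherin, which holds budding viruses at the cell surface) was highest in plasma cell-like cells at 403.5 CPM (368.7 to 440.8), which overlaps that of blood endothelial-like cells at 366.6 CPM (345.1 to 389.0). Within no library did plasma cell-like cells lead for Bst2: their 487.7 CPM in library 2 stood below 624.2 CPM in blood endothelial-like cells, and library 1 had too few of them for a value. Zbp1, a sensor of Z-form nucleic acids, led in plasma cell-like cells as well, at 44.20 CPM, from 54 UMIs, and within single libraries only in library 2.

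Neutrophil-like cells also held Isg15 and Ifi27l2a. Isg15 was at 324.5 CPM in them (344.5, 430.7 and 144.6 CPM by library), against 124.4 CPM in macrophage-like cells. Ifi27l2a was at 429.8, 671.1 and 78.57 CPM in libraries 1, 2 and 3, so library 3 was lowest for both genes. Neutrophil-like cells of libraries 1 and 2 lay in cluster 5 (410 and 718 cells, 22 of library 3), and those of library 3 in cluster 15 (578 cells), so these library values come from different clusters. Ifi27l2a in T cell-like cells was at 236.9 CPM pooled.

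The library values of macrophage-like and fibroblast-like cells also come from different clusters. Of the macrophage-like cells, libraries 1 and 2 lay mostly in cluster 19 (235 and 279 cells, 13 of library 3) and library 3 in cluster 14 (450 cells), and of the fibroblast-like cells library 3 lay mostly in clusters 4, 6 and 11. In macrophage-like cells library 2 was highest for 12 of 26 type I genes, against 20.5% of all genes, and library 3 lowest for 12, against 23.9%. Isg15 in these cells had 115.0, 214.7 and 17.86 CPM in libraries 1, 2 and 3, whereas Rsad2 had 53.22, 51.97 and 47.32 CPM. In fibroblast-like cells library 2 was highest for 13 of 24 type I genes (20.6% of all genes) and library 3 lowest for 19 (27.2%). Isg15 was again far apart there, at 166.6, 209.1 and 10.34 CPM. Within cluster 14 the type I sum was 2478.8, 2170.1 and 1406.4 CPM in libraries 1, 2 and 3, and within fibroblast-like cluster 2 it was 3111.4, 3544.9 and 1148.9 CPM, with library 3 lowest in both. Whether the classes differ in the library pattern was not tested.

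**Figure D4:**
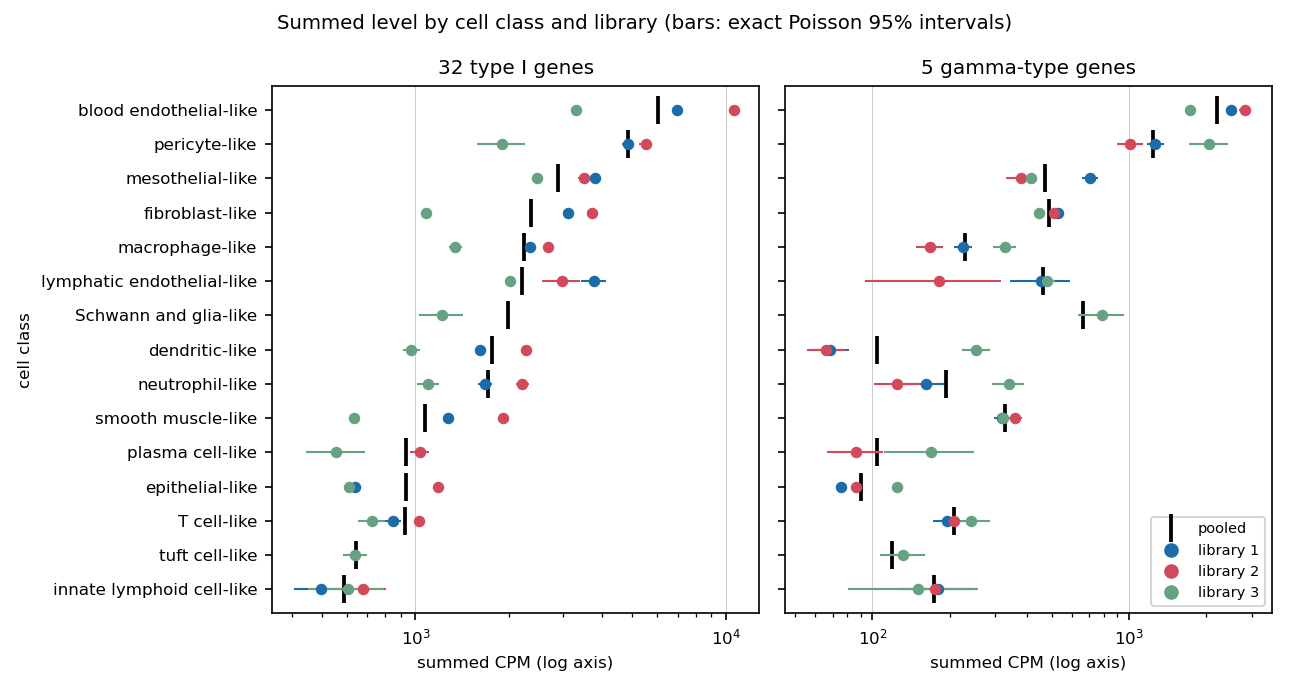
Summed CPM of the 32 type I genes (left) and the 5 gamma-type genes (right) by cell class, on a log axis. Black bars are all libraries pooled, points are the unassigned libraries with 20 cells or more of a class, and lines are exact Poisson 95% intervals. For type I genes library 3 is the lowest point in blood endothelial-like, pericyte-like and fibroblast-like cells, and for gamma-type genes pericyte-like cells have library 3 on top.

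In the epithelium, the type I genes were low on average and high in a minority of cells of library 2. The type I sum in epithelial-like cells was 639.2, 1183.1 and 610.6 CPM in libraries 1, 2 and 3. Libraries 1 and 2 lay mostly in clusters 0, 1 and 3, and library 3 in clusters 7, 17 and 21. In clusters with cells of all libraries the sum was also highest in library 2, at 1013.0, 2510.7 and 842.7 CPM in cluster 17 and 1062.5, 2315.5 and 675.6 CPM in cluster 21. Library 2 was highest for 21 of 24 type I genes, against 20.5% of all 8573 genes tested. Its ratio to library 1 was above 1 for 32 of 32 type I genes, with a median of 2.1 and a range from 1.05 to 7.65. Ifit3 had 5.937, 45.41 and 2.841 CPM, and Isg15 11.77, 77.36 and 9.169 CPM. Oasl1 was nearly level between libraries 1 and 2, at 16.12 and 16.88 CPM, with 10.30 CPM in library 3. Ifi27, the member with the most UMIs in the epithelium, had 174.2, 204.7 and 114.5 CPM. In epithelial-like cells 5 of 31 type I genes and 0 of 5 gamma-type genes were at least 2-fold above the median of the other classes, against 16.0% of all genes.

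At 2000 UMIs per cell, 789 of 9366 epithelial-like cells (8.42%, interval 7.87 to 9.0) had at least 5 type I genes, at full depth 55.5%. By library the matched shares were 2.09%, 11.6% and 1.3%, and without library 2 the share is 1.69%. At least 8 genes were found in 380 cells of library 2, in 1 cell of library 1 and in 1 of library 3. Library 1 had 52, 21, 7 and 2 cells at exactly 4, 5, 6 and 7 genes, and library 3 had 33, 13, 5 and 1. In library 2 the number levelled off, with 153, 119, 127, 112, 130, 85 and 73 cells at exactly 4, 5, 6, 7, 8, 9 and 10 genes. The highest number in a cell was 11, 18 and 8 in libraries 1, 2 and 3. The 10% of epithelial-like cells with the most type I UMIs held 53.1% of them, against 30.2% in blood endothelial-like cells. By library these shares were 38.4%, 54.1% and 33.3% against 20.5%, 25.7% and 32.1%. Mean type I UMIs per thinned cell were 2.08 and 13.4 in these classes, and the part of this difference in the shares was not tested.

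**Figure D5:**
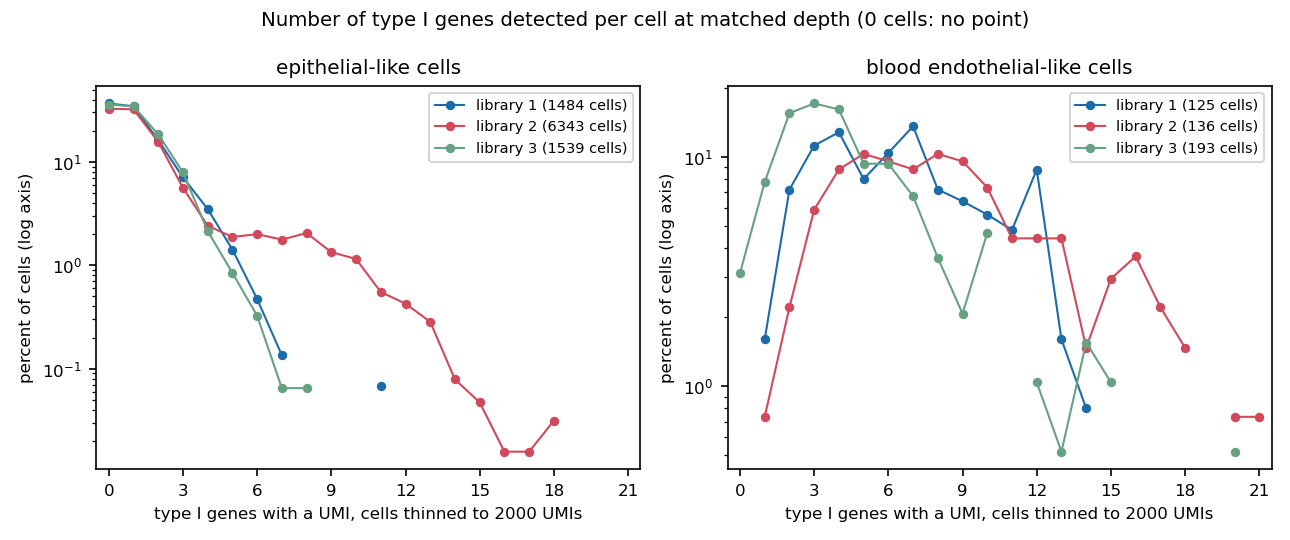
Share of cells (percent, log axis) by the number of type I genes with a UMI, after thinning each cell to 2000 UMIs, in epithelial-like (left) and blood endothelial-like cells (right) of each unassigned library. In epithelial-like cells library 2 has a shoulder from 5 to 10 genes that libraries 1 and 3 lack, and in blood endothelial-like cells the bulk of the cells lies between 2 and 12 genes.

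The library 2 cells with at least 8 type I genes lay within the ordinary epithelial clusters. The listed interferon genes were left out of the clustering, so this cannot show whether these cells would form a cluster of their own. Of the 380, 138 and 69 were in clusters 1 and 3, high in Lcn2, 112 in cluster 0, high in Aqp1, and 43 in cluster 20, intermediate for both. The matched share with 5 genes in library 2 was 9.1% in Aqp1-high, 13.1% in Lcn2-high and 19.0% in intermediate epithelial-like cells. Intermediate cells also had the highest type I sum of the 3 kinds in library 2, 1566.0 CPM against 998.6 CPM in Aqp1-high and 1327.4 CPM in Lcn2-high cells. Library 3 had the same order, with 787.7 CPM in intermediate, 659.9 CPM in Lcn2-high and 569.9 CPM in Aqp1-high cells. In library 1 Lcn2-high cells were highest at 710.7 CPM, with intermediate cells at 629.1 CPM and Aqp1-high cells at 537.1 CPM. Intermediate cells lay mostly in cluster 20 in library 2 (385 cells) and in cluster 17 in libraries 1 and 3 (125 and 291 cells). In library 1 these clusters had 461.4 and 1013.0 CPM, so the orders by library are over unlike intermediate cells.

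These 380 cells were set beside the 5605 library 2 cells with under 5 genes as a description, since the type I genes chose them. Their median depth was 11878.5 UMIs against 12498 UMIs, and their median doublet score 0.0253 against 0.0551. Markers of other classes were low in both groups beside those of the epithelium. Blood endothelial markers summed to 46.12 against 28.44 CPM, macrophage markers to 30.75 against 23.56 CPM and pericyte markers to 2.812 against 2.987 CPM. Fibroblast markers summed to 94.11 against 59.27 CPM, neutrophil markers to 22.31 against 13.24 CPM and T cell markers to 2.812 against 3.831 CPM, while epithelial markers summed to 13547.5 against 14999.1 CPM. The part of such RNA in the per-cell numbers was not tested.

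Genes outside the choice were higher in the same 380 cells. Among other type I response genes (28 listed), 22 of 26 with a ratio were at least 2-fold higher, where 1.5% of 7815 genes were. The gamma-type members Gbp3 (38.25 against 1.487 CPM), Iigp1 (23.06 against 2.011 CPM), Igtp (45.74 against 5.664 CPM) and Gbp2 (46.31 against 8.686 CPM) passed the 2-fold mark, and Irf1 (87.74 against 53.95 CPM) did not. Among other gamma response genes 14 of 14 with a ratio passed it, such as Irgm1 at 273.5 against 33.55 CPM. Some of the 14 are under 10 CPM and rest on few UMIs, as few as 4 in the 380 cells (Tgtp1, 0.7499 CPM). The receptor genes summed to 286.3 against 265.2 CPM, and Ifnlr1 stood at 4.499 against 5.033 CPM.

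The gamma-type genes had a steeper contrast between vessel and epithelium than the type I genes. Iigp1 was at 1186.5 CPM (1147.7 to 1226.3) in blood endothelial-like cells, 810.0 CPM (751.2 to 872.1) in pericyte-like cells and 3.403 CPM in epithelial-like cells. Its highest level was 61.5 times the median of the other classes. In libraries 1, 2 and 3 it had 1510.9, 1669.4 and 734.9 CPM in blood endothelial-like and 853.8, 722.7 and 887.3 CPM in pericyte-like cells. Igtp was at 182.3 CPM in blood endothelial-like cells and 86.01 CPM in T cell-like cells, its next class. Gbp3 was at 113.7 CPM and Gbp2 at 157.4 CPM in the vessel lining, and Gbp2 was highest in mesothelial-like cells at 256.7 CPM. By library Gbp2 had 360.2, 183.5 and 238.8 CPM in mesothelial-like and 179.9, 232.5 and 107.4 CPM in blood endothelial-like cells, so the order turned in library 2. The ratio of the type I to the gamma-type sum was 2.73 in blood endothelial-like, 3.93 in pericyte-like, 10.3 in epithelial-like and 16.9 in dendritic-like cells. In library 3 alone it was 1.9, 0.926, 4.9 and 3.82 in these classes, so the order was another there.

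Irf1 had another library order in the vessel lining than the rest of the gamma-type list. Its highest class was the vessel lining at 568.0 CPM, with Schwann and glia-like cells overlapping at 467.5 CPM. In blood endothelial-like cells it had 446.7, 438.9 and 713.8 CPM in libraries 1, 2 and 3, while the other 4 genes summed to 2042.5, 2376.5 and 1017.7 CPM. In pericyte-like cells Irf1 had 319.7, 188.8 and 1022.7 CPM, with library 3 (40 cells) highest. The other 4 genes summed to 946.9, 820.3 and 1022.7 CPM there. The intervals of these sums all overlap (863.0 to 1036.7, 722.1 to 928.1 and 794.1 to 1296.5 CPM), so their order cannot be read. In epithelial-like cells Irf1 had 57.82, 56.95 and 105.8 CPM, and in macrophage-like cells 80.55, 78.58 and 203.6 CPM. Of all genes tested, 61.4%, 39.8%, 61.0% and 61.7% were highest in library 3 in blood endothelial-like, pericyte-like, epithelial-like and macrophage-like cells, respectively. Library 3 was the highest for Irf1 in each of these classes. Mesothelial-like cells were an exception, with 181.1, 124.4 and 95.92 CPM. A list of 10 immediate early and heat shock genes, which rise during tissue digestion, moved in the same way, at 16716, 15431.2 and 28393.2 CPM in blood endothelial-like and 24100.8, 15481.7 and 41222.4 CPM in pericyte-like ones. In mesothelial-like cells that list had 20664.3, 15428.5 and 21231.6 CPM. The part of this response in the Irf1 levels was not tested.

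Other genes of the pathway were read from lists beside the members. Of other type I response genes, 16 of 27 tested were highest in blood endothelial-like cells, against 7.96% of all genes. The list's highest levels in these cells were those of Ly6e (1130.3 CPM), Slfn5 (924.2 CPM) and Ifitm2 (684.7 CPM), of which Ifitm2 was higher in neutrophil-like cells (1930.8 CPM). Of other gamma response genes 11 of 18 were highest there, with the highest levels for Irgm1 (362.5 CPM), Gbp4 (227.3 CPM) and Gbp7 (223.3 CPM). In these cells library 2 was highest for 15 of 25 and 11 of 16 genes of both lists, against 20.7% of all genes. Ly6e was level between libraries, at 1114.7, 1155.8 and 1130.2 CPM. The sensing list had its highest pooled sum in dendritic-like cells (662.7 CPM), where Irf8 had 260.3 CPM, Irf5 221.4 CPM and Myd88 45.06 CPM. Macrophage-like cells were above them in library 1 (613.9 against 579.6 CPM) and library 2 (510.4 against 492.5 CPM). In this list 4 of the 11 genes tested were highest in blood endothelial-like cells, and each of their intervals overlaps that of the next class. The signalling list had its highest pooled sum in neutrophil-like cells (1850.9 CPM, 1795.0 to 1908.1), overlapping pericyte-like cells (1837.7 CPM, 1748.6 to 1930.1) and Schwann and glia-like cells (1541.9 to 1911.6). Jak2 had 424.5 CPM, Stat3 399.0 CPM and Jak1 336.1 CPM in neutrophil-like cells. In this list 1 of the 10 genes was highest in blood endothelial-like cells, with an interval that overlaps that of neutrophil-like cells.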

How the data were processed

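Single-cell 3′ gene expression libraries of mouse gallbladder were used as deposited. The authors deposited 1 matrix of raw UMI counts per gene and barcode, which Cell Ranger wrote per the file headers. The submitters' processing notes name version 6.1.1 and the builds GRCm38 and mm10. The annotation version, the counting of reads shared by genes and any equalising of depth are not given in the sources used here. Barcodes carry a library number without a map to samples, and 0 columns of other samples were found.

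A cell needed 300 genes or more and no more than 20% of its UMIs from mitochondrial genes, and doublets were removed per library with Scrublet in scanpy 1.11.5 (expected rate 6%, score above 0.25), which took out 1024 cells. For clustering, each cell was scaled to 10000 UMIs before the logarithm was taken. All interferon lists were left out of the 2000 variable genes. With 30 components, 15 neighbours and Leiden clustering (leidenalg 0.10.2, resolution 1.0, seed 0), 39 clusters were found. A name needed 3 markers in at least 20% of the cells and a score 1.0 above the median over clusters, from 25 marker lists. Ly6d was dropped from the plasmacytoid list after its values were seen, since it is high in epithelium. Epithelial clusters were called Aqp1-high or Lcn2-high where that gene was 10-fold above the other. Libraries of a class are given at 20 cells or more. A gene counted as tested at 10 CPM and 20 UMIs. Shares use cells thinned to 2000 UMIs. Poisson and Clopper-Pearson 95% intervals (scipy 1.17.1) cover counting error only, since 1 library per group has no replicate. The counting steps were tested on simulated data.

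All members could be named; of the other lists, the ligands with a UMI, the receptors and the 3 highest genes in the class where the list is highest. Irgm1 in the library 2 cells, and those cells, were described after their values were seen. 1 result on a gene outside the members is not reported here. The members and lists were chosen with earlier results of these data known. Promoter windows and their build are RefSeq's, and gene positions are from the GRCm38 annotation.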

Additional observations from a re-analysis of the deposited data

How the results depend on the processing

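The 3 sums, 2 shares and 2 counts given here were recomputed under alternatives. Library ratios, values of single genes and the cell groups within a library were not. The type I sum in blood endothelial-like cells (6035.0 CPM) was 6161.5 CPM with a mitochondrial limit of 10%, 5661.7 CPM without doublet removal, 5203.9 CPM with each cell weighed the same and 3996.3 CPM without Ifitm3. Leaving out 1 library gave 4837.0 to 8379.4 CPM. The gamma-type sum there (2207.9 CPM) was 2013.6 CPM without doublet removal, 1968.1 CPM with equal weights and 2049.4 to 2614.3 CPM without 1 library. The epithelial type I sum (930.0 CPM) was 952.1 CPM at the 10% limit, 1024.6 CPM with equal weights, 854.2 CPM without Ifitm3 and 628.0 to 1042.0 CPM without 1 library, lowest without library 2. The endothelial share (60.4%) was 30.5% at 1000 UMIs, 73.3% with 4 genes required, 32.2% with 8 and 50.9% to 75.1% without 1 library. The epithelial share (8.42%) was 3.83% at 1000 UMIs, 11.0% with 4 genes, 4.08% with 8 and 1.69% to 9.82% without 1 library. The requirement of 8 genes was chosen after seeing the data. Under 10 alternatives, 22 to 27 members were highest in blood endothelial-like cells, and the promoter count of 13 became 14 with the shorter core (GAAA, any 2 bases, GAA) and 10 before the start. Of 68 alternatives 39 stayed within the interval, or within 1.5 times a count. No paired analysis was possible because each group is 1 library and the libraries are not assigned. Depth limits library 3 most, where 624 of 817 blood endothelial-like cells fell under 2000 UMIs.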

Other observations

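The cells set apart for their Xist level were not free of the response. Their cluster with macrophage and microglia genes (138 cells, 135 in library 1) had a type I sum of 8241.0 CPM, led by Ifi27l2a at 3301.0 CPM (288 UMIs), Ifitm3 at 1352.5 CPM and Bst2 at 1180.6 CPM. The cluster with rod photoreceptor genes (96 cells, all in library 1) had 1167.4 CPM. Where these cells came from was not tested.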
